A study of Mus musculus with 2 samples.

Results

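A set of 10 genes that mark endothelial cells was examined for peaks of GFP ChIP-seq (chromatin immunoprecipitation with an antibody against green fluorescent protein, followed by sequencing) in heads of E10.5 mouse embryos (E, embryonic day). They are Kdr, Flt1, Flt4, Tek, Tie1, Cdh5, Pecam1, Robo4, Erg and Sox17, which makes 10 of 21887 protein-coding genes. The genes were chosen by name, not by their values. A peak was assigned to a gene when its summit, the base of highest signal, lay in the annotated gene or within 10 kb of either end, a stretch called the window here. The series concerns functions of histone H3.2 in the eye. It comprises 2 libraries, which the labels describe identically as snap-frozen heads with the same antibody, so they form 1 group with no contrast. The labels give no genotype, strain or protein fused to GFP, and do not say whether the libraries came from separate embryos or whether one served as a control. The libraries are called library 1 and library 2, and each has its own peak list. Peak lists hold no expression values, so the labelled tissue could not be checked by marker levels. A whole head contains many cell types, and a peak in it cannot be assigned to endothelial cells.

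Endothelial cells line blood and lymphatic vessels. Vascular endothelial growth factors (VEGF) bind the receptor tyrosine kinases encoded by Kdr, Flt1 and Flt4, and angiopoietins bind the receptor encoded by Tek, with which the related receptor Tie1 associates. Cdh5 and Pecam1 encode adhesion proteins of endothelial junctions, Robo4 an endothelial receptor of the Roundabout family, and Erg and Sox17 transcription factors of the ETS and SOX families. ETS factors recognise a short core sequence that is common in promoters of endothelial genes.

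All 10 genes had library 1 peaks and none had a library 2 peak. Over all protein-coding genes, the window held a library 1 peak in 94.8% and a library 2 peak in 0.192%, so neither count sets these genes apart. Library 1 held 584724 peaks with a median fold of 3.90, and library 2 held 348, of which 127 lay on assembled chromosomes. The fold is the enrichment of the summit over local background given by the authors' peak caller. The library 2 peak nearest to a member lay 4.49 Mb from Flt4, and the one nearest to Flt1 lay 130.2 Mb away. All values that follow are for library 1 and have no replicate.

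The promoters of the members differed in base composition and in whether a peak reached them. RefSeq promoter sequences of build GRCm38.p6, the assembly that mm10 represents, were given for 9 starts of 7 members (Kdr, Flt1, Flt4, Tek, Tie1, Robo4 and 3 starts of Erg). A peak overlapped the 250 bases before the start at 6 of these 9, against 36.6% of 21238 protein-coding starts. Shown here are 2 promoters that a peak covered (Flt4 and Tie1) and 2 that none touched (Robo4 and the outermost start of Erg), 5′ to 3′ and only as far as the annotated gene. Capitals mark the ETS core GGAAG or its complement CTTCC.
Flt4, chr11:49609429-49609678, plus strand: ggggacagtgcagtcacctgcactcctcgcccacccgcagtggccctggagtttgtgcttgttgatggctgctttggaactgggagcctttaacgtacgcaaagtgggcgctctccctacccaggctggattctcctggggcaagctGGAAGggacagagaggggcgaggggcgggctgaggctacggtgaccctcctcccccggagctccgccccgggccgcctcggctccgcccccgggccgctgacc
Tie1, chr4:118489850-118490099, minus strand: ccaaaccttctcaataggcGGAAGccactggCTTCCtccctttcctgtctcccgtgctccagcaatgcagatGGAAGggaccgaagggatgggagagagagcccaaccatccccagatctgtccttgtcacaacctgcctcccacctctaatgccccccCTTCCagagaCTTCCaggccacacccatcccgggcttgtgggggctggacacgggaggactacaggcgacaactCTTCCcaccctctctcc
Robo4, chr9:37401722-37401901, plus strand: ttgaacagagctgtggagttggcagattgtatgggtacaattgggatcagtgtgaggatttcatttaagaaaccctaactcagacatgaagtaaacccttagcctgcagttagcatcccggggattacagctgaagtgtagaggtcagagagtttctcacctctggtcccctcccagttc
Erg, chr16:95586601-95586843, minus strand: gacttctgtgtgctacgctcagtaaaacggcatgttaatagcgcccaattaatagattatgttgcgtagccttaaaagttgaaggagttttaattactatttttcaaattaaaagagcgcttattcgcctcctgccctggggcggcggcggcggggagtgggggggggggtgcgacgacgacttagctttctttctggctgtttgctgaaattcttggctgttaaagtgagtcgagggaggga

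The Flt4 promoter had a GC content of 68.4% with 16 CG dinucleotides over its 250 bases, and 222 of them lay under a peak. In Tie1 the GC content was 60.4% with 6 CG dinucleotides, and a peak covered all 250 bases. The 250 bases before the start of Robo4 had 49.6% GC with 2 CG dinucleotides, and those before the outermost Erg start 48.8% with 14. Neither of these was touched by a peak. The other promoters reached by a peak were those of Flt1 (70.4% GC, covered over 250 bases), Kdr (61.6%, 70 bases), Tek (51.2%, 250 bases) and the innermost Erg start (47.2%, 75 bases). The middle Erg start, with 36% GC, was not reached. Median GC was thus 61% in the 6 reached promoters and 48.8% in the other 3. Over all protein-coding starts the medians were 59.2% with a peak and 51.6% without. A difference in the same direction was therefore present across the genome, and its source was not tested.

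Short motifs were counted on both strands of the 250 bases before each start. The ETS core GGAAG occurred in 7 of 9 member promoters and in 65.1% of all protein-coding promoters. Tie1 held 6 copies, Flt1 3, Robo4 2, and Kdr, Flt4 and 2 of the Erg starts 1 each, whereas the Tek promoter and the outermost Erg start held none. Both copies in Robo4 lay within the annotated gene, past the stretch shown. The Sp motif GGGCGG was found in 4 member promoters (42.6% of all), the NF-Y motif CCAAT in 3 (35.4%), and the TATA box motif TATAAA in 2 (11.6%). The SOX motif AACAAT was present in 2 (8.22% of all), the GATA motif AGATAA in 1 (8.81%) and the FOX motif TGTTTA in 0 (10.49%). The promoters that a peak covered in full were those of Tie1 with 6 ETS cores, Flt1 with 3 and Tek with none. Those that no peak touched were Robo4 with 2, the middle Erg start with 1 and the outermost with none. Kdr, Flt4 and the innermost Erg start, with 1 each, were covered in part. A relation between motif and peak was not tested.

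A summit lay within 1 kb of an annotated start, or of any of several starts, in all 7 members with a start in the table, against 67.6% of 17492 protein-coding genes with one. Kdr had summits at 316 bp before and 740 bp after the start. The single Flt1 summit lay 434 bp before it, in a peak of 1098 bp that covered the start. Flt4 had summits 162 bp before and 661 bp after, and Tek 183 bp before and 326 bp after. The Tie1 summit lay 59 bp inside the gene, the closest to a start among the members. In Robo4, 3 summits lay 546 bp before and 162 and 863 bp after the start. Erg differed among its 3 starts: the outermost had 1 summit, 914 bp inside, the middle start none, its nearest summit lying 2003 bp before it, and the innermost had summits 285 bp before and 598 bp after. For Cdh5, Pecam1 and Sox17 both gene ends were used. Cdh5 and Pecam1 had a summit within 1 kb of each end, and Sox17 of neither, its nearest lying 1487 bp inside the lower end. Counting either end for every member, 9 of 10 had such a summit, against 77.1% of all genes.

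Across all 21238 protein-coding starts, summits were densest in the 500 bp after the start, at 8.33 per 10 kb. Their density was 5.06 per 10 kb in the 500 bp before it and 2.69 between 1 and 1.5 kb before it. From 500 to 1000 bp after the start it was 4.47 per 10 kb. The 9 member starts together had 5 summits in the 500 bp before the start, 3 in the 500 bp after it and 5 in the next 500 bp. These are counts, not densities, and cannot be read against the values per 10 kb. The counts in the same bins over all 21238 starts were 5376, 8849 and 4747.

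**Figure D1:**
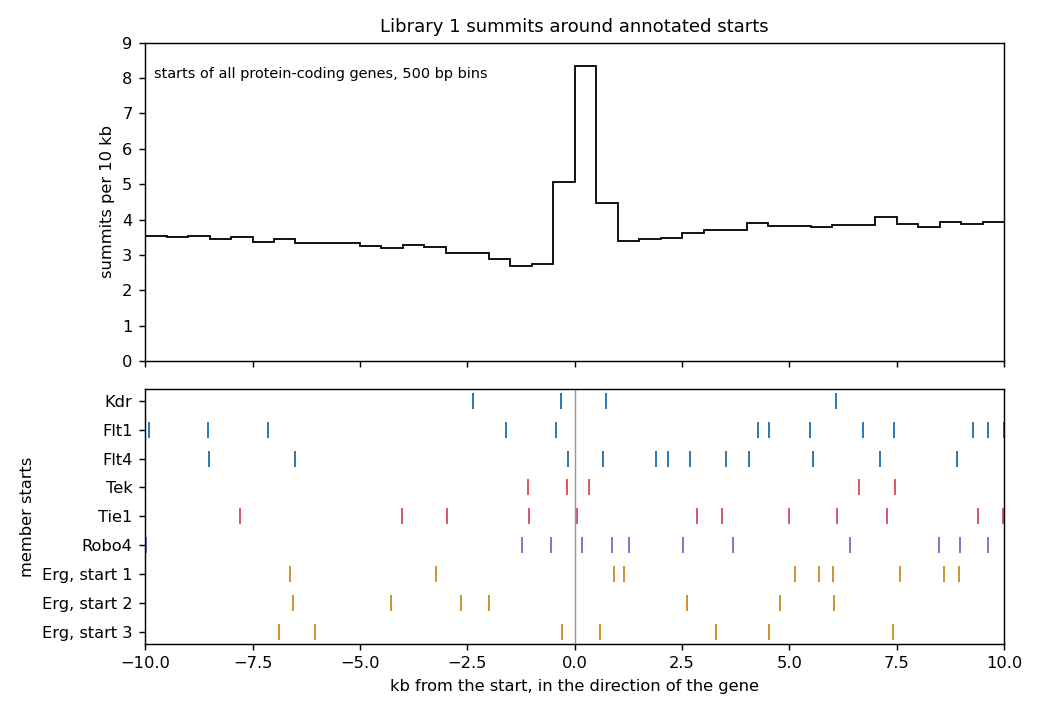
Upper panel: library 1 summits per 10 kb in 500 bp bins (y axis) against the distance in kb from all 21238 protein-coding starts, in the direction of the gene. Lower panel: each tick is a summit around the 9 starts of 7 members, in colours by role; all but the middle Erg start have a summit within 1 kb, and the genome-wide profile peaks at 8.33 just after the start.

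The folds of the peaks nearest the starts lay on both sides of the library median of 3.90. The pileup at the summit, which counts the extended reads covering that base, was recovered from the fold and p-value of each peak. The peak nearest the Kdr start (chr5:75978636-75978812) had a fold of 2.501 from 12 reads (95% exact Poisson interval 6.20 to 21.0, counting error only). Flt4 had 2.96 from 10 reads (4.80 to 18.4), Tek 3.50 from 12 reads and Tie1 3.90 from 16 reads (9.15 to 26.0). Flt1 had 4.31 from 15 reads (8.40 to 24.7). Robo4 had 5.39 from 19 reads (11.4 to 29.7), and the innermost Erg start 5.28 from 22 reads (13.8 to 33.3). These read intervals overlapped one another. Next to the nearest peak, Tek had a fold of 5.39 at 326 bp and Erg one of 6.19 at 598 bp from the start. In Robo4 the peak with the highest fold of the window, 6.73 from 24 reads (15.4 to 35.7), also lay near the start, at chr9:37402542-37402959.

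The windows held 424 library 1 peaks over 958.7 kb. Because longer genes collect more peaks, the number was divided by the window length. Density fell into a wide order, and intervals here are again 95% exact Poisson intervals, which treat peaks as independent. Flt4 stood first with 47 peaks or 7.45 per 10 kb (5.48 to 9.91), followed by Robo4 with 23 peaks or 7.16 (4.54 to 10.7) and Tie1 with 27 peaks or 6.98 (4.60 to 10.2). Pecam1 had 47 peaks (5.80 per 10 kb), Flt1 89 (4.82), Cdh5 30 (4.77) and Erg 116 (4.69). Neighbours in this order had overlapping intervals, and so did all 7 of these genes. Kdr had 17 peaks or 2.57 (1.49 to 4.11) and Tek 26 peaks or 1.67 (1.09 to 2.44). Sox17 came last with 2 peaks or 0.755 (0.0914 to 2.73). The intervals of Tek and Sox17 lay below those of the 7 denser genes, while that of Kdr overlapped those of Cdh5, Flt1 and Erg.

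All protein-coding genes had a median of 3.26 peaks per 10 kb of window, with quartiles of 1.34 and 5.90. The median of the 10 members was 4.79. Of the members, 7 lay above the median of all genes, 3 of these (Flt4, Robo4 and Tie1) above the upper quartile, and Sox17 alone below the lower quartile. By percentile among all genes they ranged from 14.7 for Sox17 and 30.5 for Tek to 84.2 for Robo4 and 86.4 for Flt4. Each gene was also set beside the 500 kb on either side of its window. The members' surroundings had a median density of 3.17 per 10 kb, close to the 3.25 of all genes. Windows were denser than their surroundings in 8 of 10 members, against 52.8% of the 21779 genes with a peak in the window or its surroundings. The ratio was 3.20 in Robo4 (2.24 per 10 kb around it) and 2.501 in Flt4 (2.98 around it), at percentiles 99.1 and 97.4 of all genes. It lay between 1.06 and 1.495 in Flt1, Erg, Pecam1, Tek, Tie1 and Cdh5, and was 0.815 in Kdr and 0.662 in Sox17. Tie1 and Tek, the related receptor genes on chromosome 4, thus differed in the window (6.98 and 1.67) and in the region around it (5.62 and 1.35), with ratios of 1.24 in both.

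**Figure D2:**
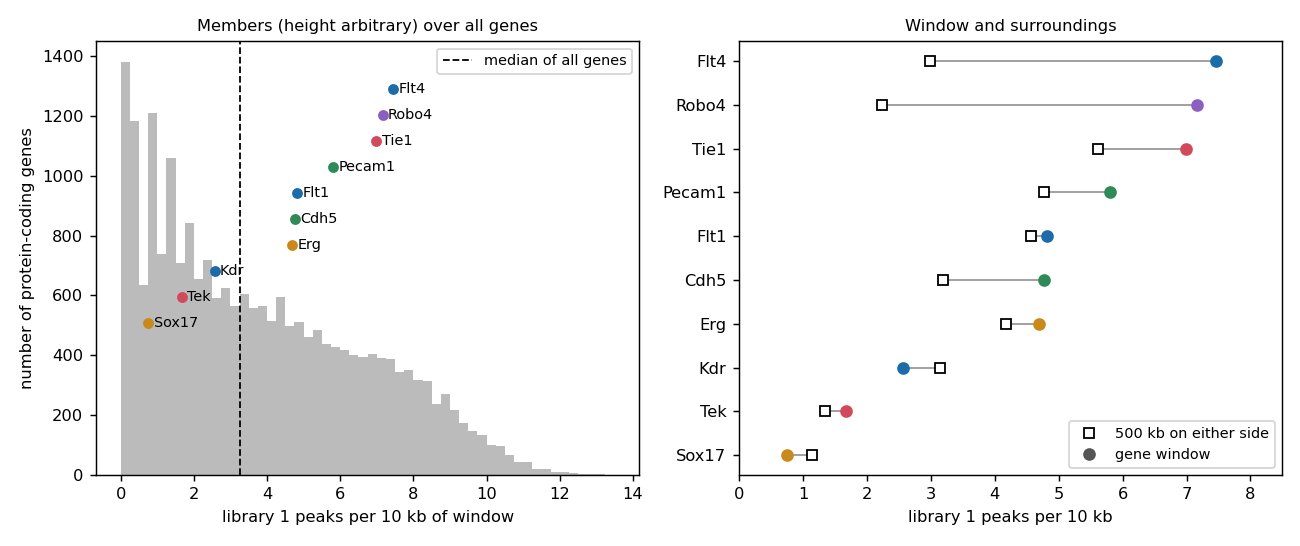
Left: histogram of library 1 peaks per 10 kb of window over 21887 protein-coding genes, with their median (dashed, 3.26) and the members as dots placed by density (height arbitrary). Right: density in each member's window (dot) and in the 500 kb on either side (square); Robo4 and Flt4 lie farthest above their surroundings, Kdr and Sox17 below.

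Peaks lay both inside the genes and around them. Of the 424 peaks, 344 were in gene bodies (4.53 per 10 kb) and 80 in the flanks (4.0 per 10 kb), against 3.06 and 3.55 over all genes. The body was denser than the flanks in 7 members, and in 55.4% of all genes. Summits inside another annotated gene numbered 30. Robo4 had 10 of its 23 peaks within Robo3, a neighbouring guidance receptor gene of the same family. Cdh5 had 8 of its 30 in the long non-coding RNA gene Gm29682, which overlaps its lower end. Flt1 and Tie1 each had 4, in the long non-coding RNA gene Gm35383 and the pseudogene Gm12859, Kdr had 3 in Gm32727 and Tek 1 in Eqtn. These peaks belong to both genes by position and were kept in the counts. Nearest to the edge of a window, a summit 9995 bp from Kdr with a fold of 3.50 fell inside it, and one 10212 bp from Erg with a fold of 3.08 fell outside.

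Among the VEGF receptor genes, Kdr encodes the main signalling receptor for VEGF-A, Flt1 a receptor that also exists as a soluble trap, and Flt4 the receptor for the lymphatic growth factor VEGF-C. Kdr (chr5:75932827-75979072) had 15 peaks in its 46.2 kb body and 1 in each flank. Its folds ran from 2.501 to 6.73 with a median of 3.77. The highest, at chr5:75933493-75934030, rested on 24 reads (15.4 to 35.7) and lay 1096 bp from the 3′ end of the gene, 44.5 kb from the start. It was also the widest Kdr peak, at 538 bp. The lowest fold, 2.501, was that of the peak nearest the start. The read intervals of both peaks overlapped. The local background was higher at the peak nearest the start, so this overlap in reads does not show whether the folds differed. No interval was computed for the folds.

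Flt1 (chr5:147561604-147726438) had 77 peaks in a body of 164.8 kb, 5 upstream and 7 downstream. Folds ran from 2.32 to 6.46 with a median of 3.85. The highest fold was shared by a pair of peaks of 23 reads each, at chr5:147576937-147577249 and chr5:147645140-147645436, 148.9 and 80.7 kb from the start. A further peak of fold 6.19 lay 7147 bp before the start. The peak over the start was the widest of the gene at 1098 bp, with a fold of 4.31 from 15 reads. Flt4 (chr11:49609679-49652739) had the densest window and the second lowest maximum fold. Its 35 body peaks, 3 upstream and 9 downstream peaks ran from 2.31 to 4.85, and 4 peaks shared that highest value with 17 reads each. The most reads at a Flt4 summit were 23, at chr11:49625771-49626344, where the fold was 3.98 over a local background of 5.04 reads. Among the 10 genes Sox17 had a lower maximum, 4.58, and a narrower range. Over all genes with a peak, the highest fold had a median of 5.79, and the 4.85 of Flt4 stood at percentile 17.8. Peaks covered 22.2% of the Flt4 window, the largest share among the members, 12.9% in Flt1 and 5.63% in Kdr.

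The Tie receptor genes, Tek for the angiopoietin receptor and Tie1 for its partner, differed in spacing and in median fold. Tek (chr4:94739086-94874976) had 24 peaks in a body of 135.9 kb, 1 upstream and 1 downstream, with a median spacing of 5.62 kb between summits. A stretch of 21.0 kb between summits at positions 94777020 and 94798010 held none. Its median fold of 4.31 was the highest of the 10 genes and stood at percentile 86.7 of all genes with a peak. Its median pileup was 15 reads, equal to that of the library, and that of Tie1 was 14. The genome-wide background, the lowest at a member peak, applied to 19 of 26 Tek peaks and 15 of 27 Tie1 peaks. The strongest Tek peak, at chr4:94865343-94865517, had a fold of 5.92 from 21 reads (13.0 to 32.1) and lay 126.1 kb from the start. Close to the start, 326 bp inside, a peak of fold 5.39 rested on 19 reads. Tie1 (chr4:118471191-118489849) had 18 peaks in only 18.7 kb, 4 upstream and 5 downstream, spaced by a median of 1.096 kb. Its median fold was 3.77. The highest, 7.002 from 25 reads (16.2 to 36.9) at chr4:118492702-118492934, lay 2.97 kb before the start, within the pseudogene Gm12859. The next, 6.73 from 24 reads, lay 9394 bp inside the gene. Peaks with a −log10 q of at least 5, a stricter threshold used here, made up 14 of 26 in Tek (53.8%) and 9 of 27 in Tie1 (33.3%).

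Cdh5 encodes VE-cadherin, the adhesion molecule of endothelial adherens junctions. Its gene (chr8:104101613-104144504) had 20 peaks in the body, 7 beyond the lower end and 3 beyond the higher end. The peaks of highest and next highest fold lay near the higher end. After a peak-free stretch of 9.68 kb came summits at 104140783 (fold 6.73, 24 reads), 104141987 (3.44), 104142743 (6.46, 23 reads), 104143468 (5.12) and 104143981 (4.85). Outside this group a fold of 5.12 was also reached at summits 104096942, 104107476 and 104131107. The peak of fold 6.46 was the widest in the window, at 753 bp. The peak across the lower end spanned 667 bp with a fold of 3.77 from 13 reads (6.92 to 22.2). Pecam1, which encodes the adhesion protein known as CD31, spans chr11:106654213-106715281. It had 38 peaks in the body, 4 beyond the lower and 5 beyond the higher end, with a longest stretch between summits of 4.13 kb. The highest fold was 5.90 from 22 reads (13.8 to 33.3) at chr11:106715000-106715214, 153 bp inside the higher end. The next highest was 5.12 from 21 reads (13.0 to 32.1), an interval that overlapped it nearly in full.

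Robo4 (chr9:37401902-37414023) had 10 peaks in a body of 12.1 kb, 3 upstream and 10 downstream, all of the latter in Robo3. Its body density of 8.25 per 10 kb was exceeded by that of Tie1, at 9.65. Folds ran from 2.31 to 6.73 with a median of 3.90, equal to that of the library, and 12 of the 23 peaks (52.2%) passed the −log10 q of 5. Besides the strongest peak 863 bp from the start, peaks of fold 5.92 from 21 reads each lay 6.40 kb inside the gene and in Robo3.

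The transcription factor genes were the extremes in number. Erg (chr16:95359169-95586600) had 105 peaks over a body of 227.4 kb, 2 upstream and 9 downstream. The strongest of all 424 peaks lay in its body, at chr16:95508983-95511158, with a fold of 7.54 from 27 reads (17.8 to 39.3). This peak was 2176 bp wide, and 0.0146% of all library 1 peaks on assembled chromosomes were as wide. Its summit lay 75786 bp from the outermost start and was followed on the higher side by 13.5 kb without a summit. Peaks of fold 6.19 from 22 reads lay 33243 bp from the outermost start and 598 bp from the innermost. Sox17 (chr1:4490928-4497426) had only 2 peaks, both in its 6.50 kb body and none in either flank. They were wide, 820 bp with a fold of 4.58 from 16 reads and 451 bp with 2.89 from 14 reads, their summits 0.821 kb apart. The nearest summits outside the window lay 11189 bp below the lower end and 10526 bp above the higher end.

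**Figure D3:**
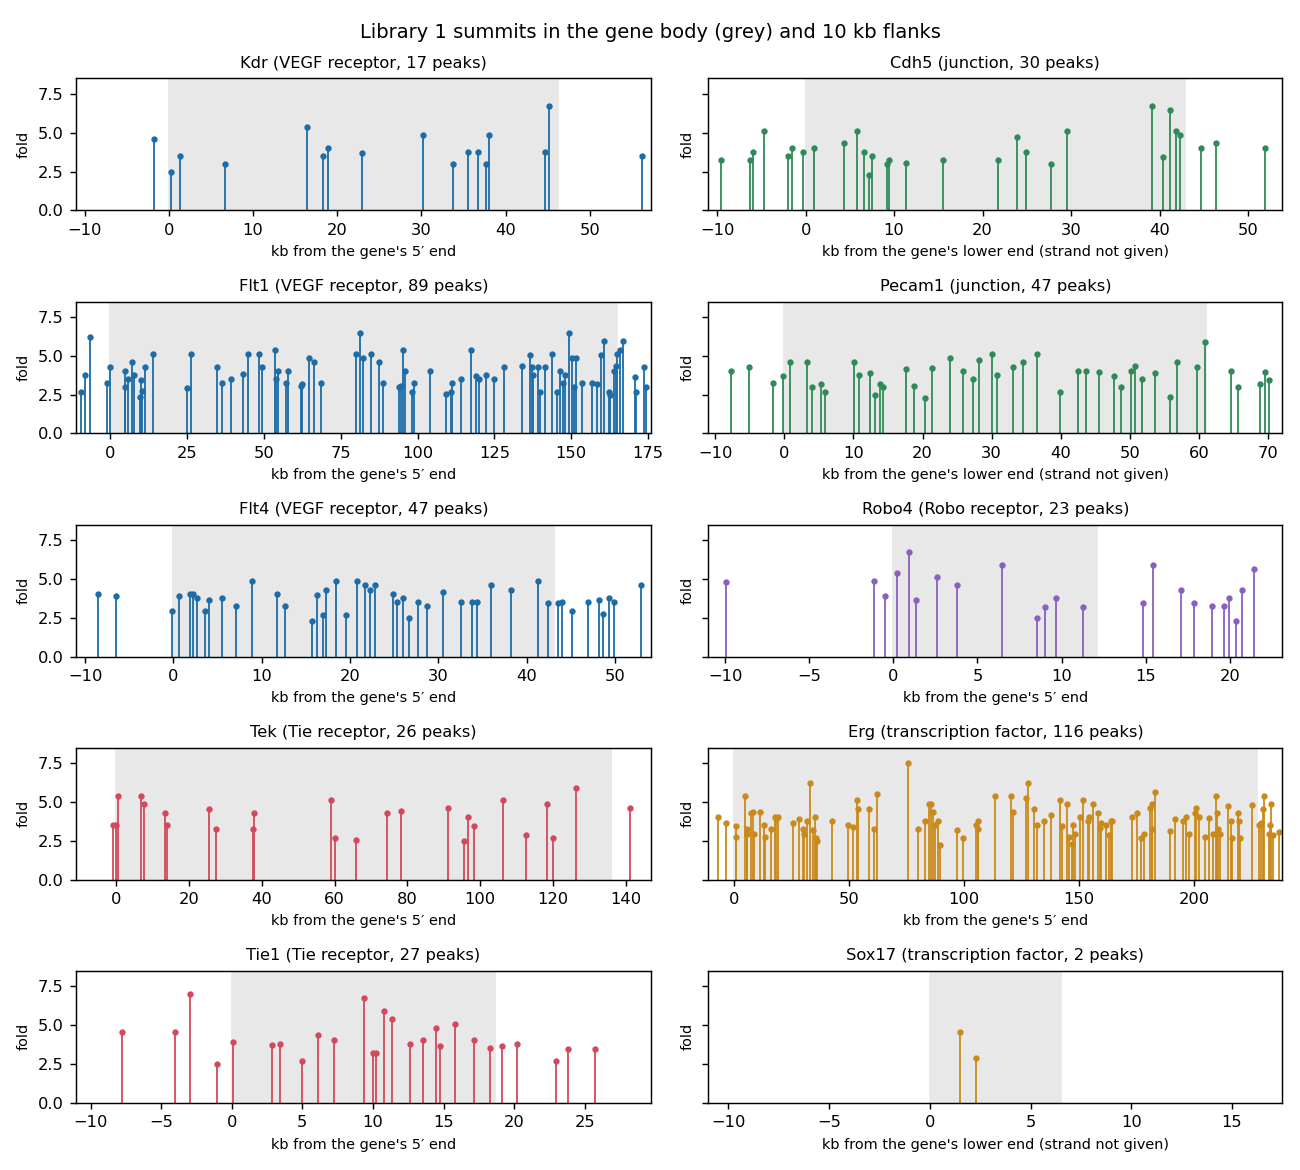
Each panel shows 1 gene: position in kb from its 5′ end, or from its lower end where the strand was not given (x axis), and the authors' fold (y axis) of each library 1 summit as a stem. The gene body is grey. Flt4 stems end at 4.85 or below, Tek stems are sparse, Cdh5 has its tallest and next tallest stems near the higher end, and Sox17 has 2 stems.

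Folds in these windows took 80 distinct values. Of the 424 peaks, 280 (66.0%) were measured against the same genome-wide background of 2.71 extended reads, as were 66.2% of all library 1 peaks. For these, 1 more read raised the fold by 0.269, from 2.69 at 9 reads to 7.54 at 27 reads. A −log10 q of at least 5 was reached at 15 reads (5.15) and missed at 14 (4.54). The lowest pileup of 9 reads has an interval of 4.12 to 17.1 and the highest of 27 reads one of 17.8 to 39.3, and these did not overlap. They were picked as the extremes of the 424 peaks, so the gap between them is no test of a difference. Intervals of pileups 1 read apart overlapped. The highest local background at a member peak was 7.55 reads.

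The median fold over the 424 peaks was 3.77, and 3.90 over all library 1 peaks on assembled chromosomes. A −log10 q of at least 5 was reached by 160 member peaks (37.7%) and by 40.9% of all peaks. Each member had at least 1 such peak, as had 88.2% of all genes. The median width was 212.5 bp in the members and 201 bp in the library, and 8.25% and 7.81% of peaks were at least 500 bp wide. Peaks in the members' windows were thus near the whole list in strength and width. The members' highest folds had a median of 6.60, against 5.79 for all genes. A highest fold tends to rise with the number of peaks in the window, and this was not adjusted for. A median gene had 15 peaks in a window of 37.2 kb, fewer than 9 of the 10 members. These counts were not adjusted for window length, and Kdr and Tek exceeded 15 peaks with densities below the median of all genes.

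**Figure D4:**
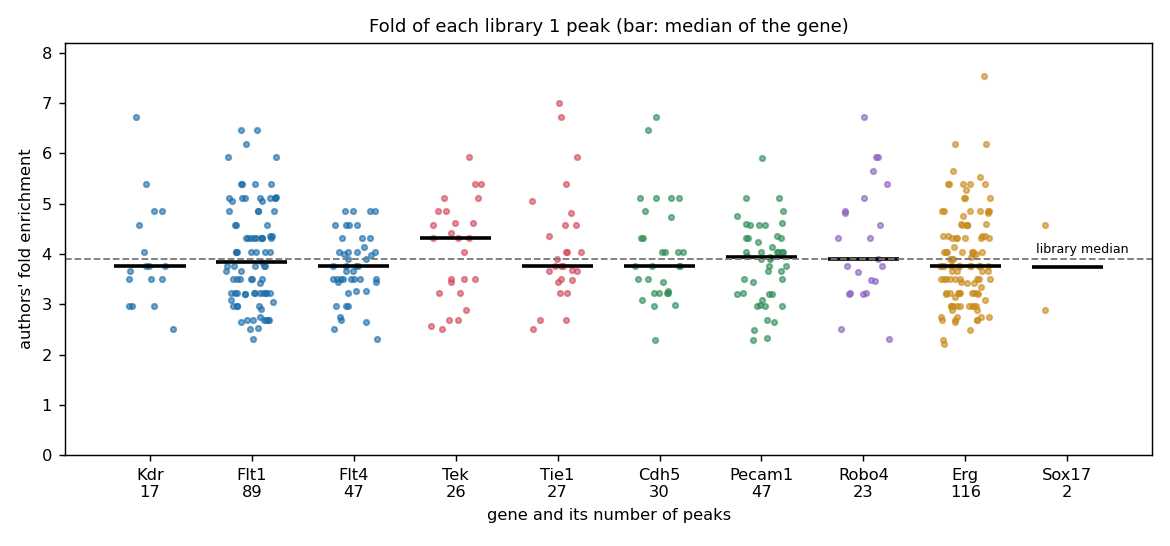
The authors' fold (y axis) of each of the 424 library 1 peaks, by gene (x axis, with the number of peaks); points are spread sideways at random, bars are gene medians and the dashed line is the library median of 3.90. Medians lie between 3.73 and 4.31, Tek highest, and the points of Flt4 stop at 4.85.

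Other genes of the endothelial programme, 52 in a list drawn from textbook knowledge, showed how the members compare with their partners. A library 1 peak lay in the window of 51, against 94.8% of all genes, and none had a library 2 peak, against 0.192%. Their median density was 4.25 per 10 kb, against 4.79 for the members and 3.26 for all genes, and 35 of 52 lay above the median of all genes. A summit lay within 1 kb of a start in 31 of the 36 with a start in the table, against 67.6% of all genes with one. Within 1 kb of either end it lay in 44 of 52, against 77.1% of all genes. The windows of 40 were denser than their surroundings, against 52.8% of all genes with a ratio. The median ratio of the 52 was 1.25, close to the 1.23 of the members and above the 1.04 of all genes.

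Ligands and co-receptors of the members had a median density of 3.92 over 13 genes. Vegfd, a ligand of Flt4 on the X chromosome, was the one gene of the list without a peak in its window, and the 500 kb on either side held 0.3 peaks per 10 kb. The highest density in this group, 8.54, belonged to Unc5b, a guidance receptor known to bind Robo4. Junction partners had a median of 4.03 over 14 genes, from 1.09 in Emcn, which encodes an endothelial sialomucin, to 10.2 in Jup, which encodes plakoglobin and had the highest density of the list. All 14 had a summit within 1 kb of an end, against 77.1% of all genes. Transcription factors had a median of 4.81 over 15 genes, from 0.819 in Mef2c to 8.15 in Gata2. The group of Notch, ephrin and TGF-beta receptors and ligands, which also holds the sphingosine phosphate receptor gene S1pr1, had a median of 7.17 over 10 genes, from 0.972 in Bmpr2 to 8.56 in Eng. Its median was the highest of the 4 groups, but so was that of its surroundings, at 5.13 against 2.05 to 3.38 in the others. Its median ratio to the surroundings, 1.14, was the lowest of the 4, against 1.15 to 1.40. Densities in each group spanned values below and above the median of all genes.

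**Figure D5:**
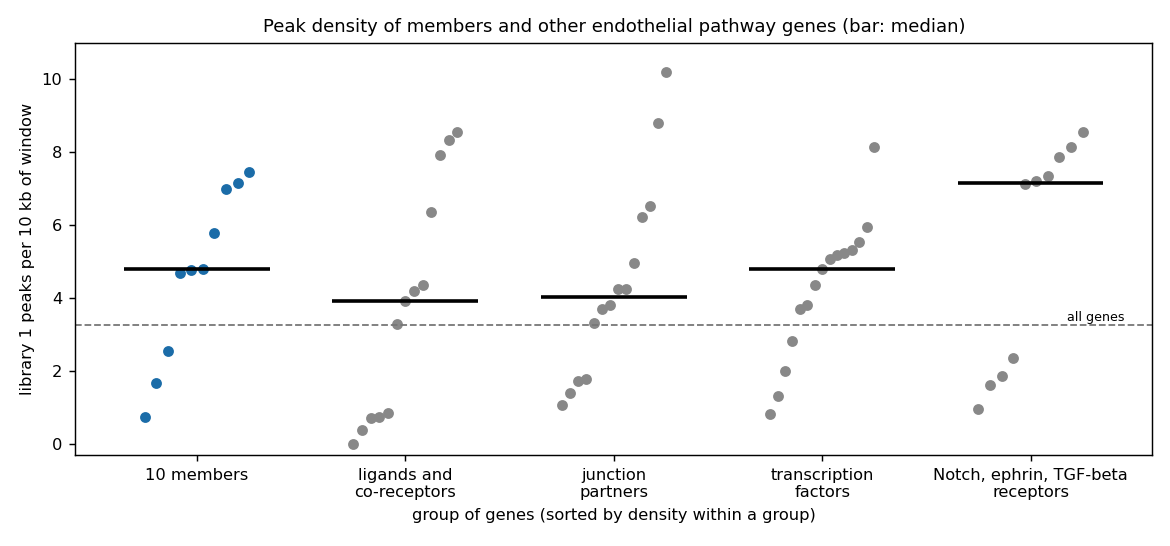
Library 1 peaks per 10 kb of window (y axis) for the 10 members and for 52 other endothelial pathway genes in 4 groups; each dot is a gene, sorted within its group, and bars are medians. The dashed line is the median of all protein-coding genes, 3.26; every group has genes on both sides of it.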

How the data were processed

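GFP ChIP-seq was deposited for 2 libraries of heads at embryonic day 10.5, each as its own peak list in the narrowPeak layout of MACS2. Named in the submitters' processing notes, without role or setting, are MACS2 2.1.0, Bowtie 1.1.2, Trimmomatic 0.33 and bcl2fastq 2.17, beside the builds mm10 and hg38. Whether a control library was used is not given in the sources used here. For each peak the authors deposited a fold enrichment as a ratio, a −log10 p-value, a −log10 q-value and a score, which is the −log10 q multiplied by 10 and rounded down, and was not used. The files give no read totals, so depth is known only through the pileups.

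Gene positions came from the RefSeq table of GRCm38.p6 and starts from the RefSeq promoter table, which held 7 of the 10 members. Coordinates are mm10, counted from 1. Density was the number of summits per 10 kb of window, with flanks of 10 kb, and surroundings were 500 kb on either side. Pileup and background were solved from fold, taken as (pileup + 1)/(background + 1), and the Poisson p-value. A whole pileup fitted 100% of peaks within 0.002, and 100% of 2000 simulated peaks were recovered. Intervals are 95% exact Poisson intervals and cover counting error only. Python 3.11.15, numpy 2.4.6, pandas 2.3.3 and SciPy 1.17.1 were used.

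There was no contrast and no test. The members and lists were chosen with earlier results of these data known. For each member the peak nearest a start and the peak of highest fold are named. Of the other pathway genes, those without a peak and the highest and lowest density of each group are named. Further peaks were named after their values were seen. The comparisons with the surroundings and the start profile were added after seeing the data.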

Additional observations from a re-analysis of the deposited data

How the results depend on the processing

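Of the results, 5 were recomputed: the number of member peaks in library 1 and in library 2, their median fold, the members above the median density, and the members with a peak at a start. The settings were flanks of 5 kb, 20 kb or none (not for the start), peaks of −log10 q of at least 5, any overlap of 1 bp in place of the summit, and summits within 500 bp counted once. No alternative was run for the promoter, motif, surroundings, body and flank, or pathway values. The start was also taken with 500 bp and 2 kb, and density over autosomal genes only. Of 30 recomputed values, 28 stayed within 1.5 times of the reported count or, for the median fold, within the 95% interval of the median. The number of members above the median density of all genes was 7 in each of these. Library 2 had 0 peaks in each, and these values are among the 28. Their outcome was fixed in advance, since the nearest library 2 peak lay 4.49 Mb from a member. Members with a summit within 1 kb of a start, or of either end where no start was given, numbered 9. With a −log10 q of at least 5 they numbered 6, at the limit of 1.5 times, and Kdr, Flt4 and Tie1 were lost. The share of all genes at this threshold is not given here, so this count cannot be placed among them. The 2 that moved used the stricter threshold, which by construction leaves fewer and stronger peaks: 160 peaks in the windows in place of 424, with a median fold of 4.85 in place of 3.77. Leaving out a replicate gave no value, since each result comes from 1 library. Most single peaks rest on few reads with wide intervals, and all member peaks come from library 1 alone. Whether the folds of single peaks differed was not tested, since the intervals are for reads and not for folds. No paired analysis was possible because there is 1 group.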
